A study of Homo sapiens with 6 samples.

Results

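Integrins are the cell surface receptors by which cells hold on to extracellular matrix and to other cells. The 35 genes described here encode 26 integrin subunits and 9 cytoplasmic proteins that couple integrins to actin or signal from them, and they were taken by gene symbol. One probe set per gene was used, the one with the highest mean over the 6 arrays among probe sets annotated to exactly 1 gene symbol. This gave a value for 34 of the 35 genes, out of 19775 genes on the array. The exception was the β6 gene ITGB6, whose probe sets carry a second symbol.

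The cells were THP1, an established human monocytic line from acute myeloid leukaemia, and gene expression was measured on Affymetrix Human Genome U133 Plus 2.0 arrays. In the treated group (3 arrays) the culture surface carried Dll4-Fc (the Notch ligand Delta-like 4 as a fusion with an antibody's Fc region), and the control group (3 arrays) is labelled untreated; RNA was collected after 48 hours in either group. The sample labels give the ligand as 60 nM and the treatment protocol gives 30 nM with a vehicle control, so the dose is not settled here. A surface coated with Fc alone is not described in the labels. All arrays come from the same cell line, the labels do not say whether replicates were separate cultures, and the p-values therefore cover the spread among these 6 samples only, part or all of which may be technical.

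An integrin is a pair of chains, α and β, and the pairing sets what it binds: collagens, laminins, the RGD sequence of fibronectin and vitronectin, or counter-receptors of the ICAM and VCAM type on other cells. Leukocytes carry their own β2 and β7 integrins. Integrins are held inactive until talin and a kindlin bind the β chain from inside the cell, after which vinculin, paxillin, zyxin and the integrin-linked kinase assemble into adhesions and the focal adhesion kinases signal from them. Monocytes use these receptors to leave the blood and, as macrophages, to adhere, migrate and take up complement-coated particles.

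With Dll4-Fc the genes of 3 of 5 leukocyte integrin α chains and of their β chain, ITGB2, were higher. So were ITGB7 and the genes of all 3 integrin activators, though the call of TLN1 was lost under 6 of 15 alternative settings. Most genes of matrix-binding α chains did not pass the test. These α genes differ in brightness. Below the median signal of all genes lay 4 of 4 collagen-binding, 1 of 3 laminin-binding and 2 of 4 RGD-binding ones, against 1 of 5 leukocyte ones. The steepest rises were those of ITGA6 (7.26-fold), ITGB7 (5.55-fold), FERMT2 (3.95-fold), ITGAL (3.43-fold) and ITGAM (3.27-fold). At an adjusted p under 0.05 in limma, 16 of the 34 measured genes rose (47.1%) and 1 fell (2.94%), and 9 of the rises reached 2-fold. Among all 19775 genes 11.6% were higher, 15% were lower and 26.6% passed in either direction; 2.6% passed with at least a 2-fold rise and 0.602% with at least a 2-fold fall. The groups did not overlap for 16 of the 34 genes upward and 3 downward, against 18.1% and 23.5% of all genes and 41.6% together. The median difference over the 34 genes was 0.06 and their mean 0.53 on the log2 scale, against a median of -0.01 over all genes, so the rises lay in a part of the list. That median was 0.02 without shared probe sets, 0.35 without dim genes, 0.13 with array weights and 0.19 without untreated replicate 3. The number that rose was also 16 with cyclic loess and with median centring between arrays, and the number that fell was 0 and 1. Without probe sets that the array maker marks as matching several transcripts, 9 of 28 rose and 1 fell. ITGAL, ITGB2, FERMT2, ZYX and VCL then had no probe set left, and ITGAM and ITGB1 were measured and did not pass.

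Signal and calls go together on these arrays, so the genes were also counted by brightness. At or above the median signal of all genes 13 of 20 rose and 0 fell, where 18% of all such genes were higher and 24.5% lower. Below it 3 of 14 rose and 1 fell, where 5.28% of all such genes were higher and 5.48% lower. The 3 dim genes that rose were ITGA9, FERMT2 and PTK2. For a dim gene that did not pass, no expression and a signal too weak to measure cannot be told apart here.

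**Figure D1:**
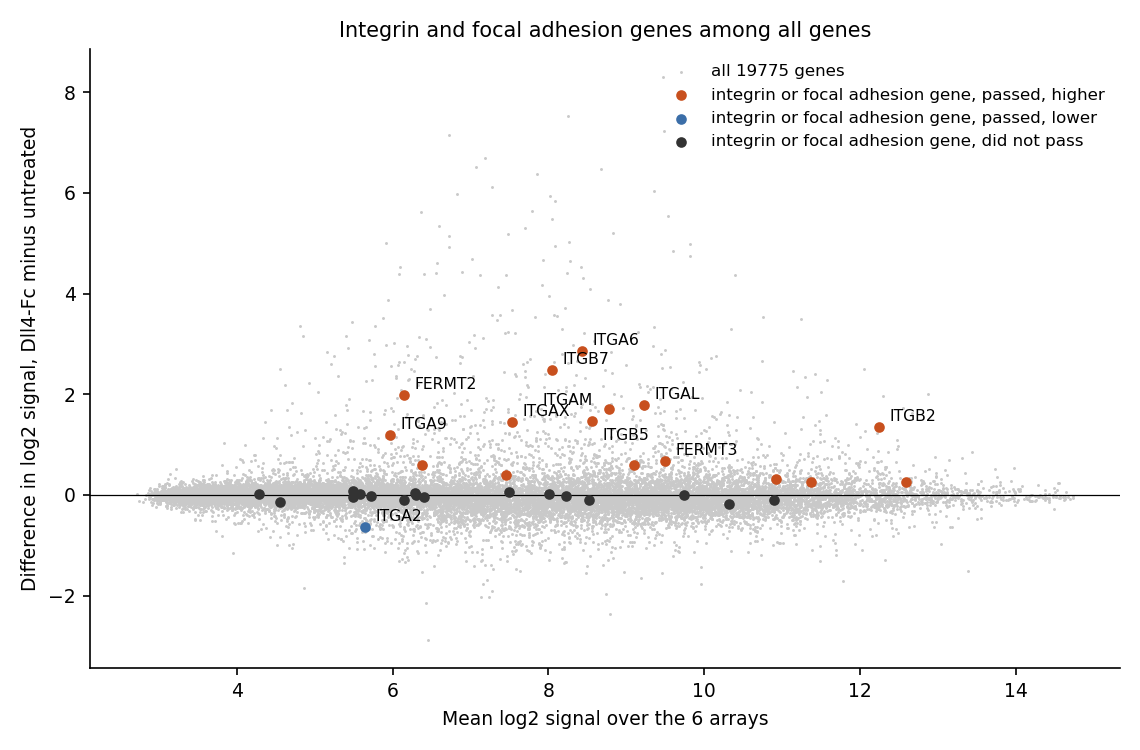
Difference in log2 signal (Dll4-Fc minus untreated) against the mean log2 signal over the 6 arrays, with all 19775 genes in grey and the 34 integrin and focal adhesion genes coloured by their call. The 16 genes that rose lie between 0.25 and 2.86 above zero, ITGA2 is the only one that passed below it, and the 17 that did not pass lie between -0.18 and 0.07.

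For 24 of the 35 genes a promoter window was at hand from RefSeq (assembly GRCh38.p14), and 11 of these belong to genes that rose. The 250 bases before the annotated start, the one listed first where a gene has several, were searched on either strand for fixed letters of factors tied to Notch, adhesion and the myeloid lineage. The letters GAGGAAG of PU.1, the main myeloid regulator, were in 6 of the 24 windows (25%), against 11% of 27305 promoters. They stood in 3 of the 11 windows of genes that rose (ITGAM, ITGB7 and FERMT3) and in 3 of the 11 of genes that did not pass (ITGAV, ITGAE and ITGA11). The TGGGAA letters of RBPJ, the DNA-binding partner of Notch, were in 1 of the 24 windows, that of ITGA11, and in 21.1% of all promoters. The letters TGTGGT of RUNX factors (10.9% of all promoters) and TGANTCA of AP-1 (6.6%) were in 0 of the 24. The letters GGGCGG of Sp1 were in 14 of the 24 (58.3%, against 42.3%). A match is a string of letters and not a bound site, and its absence says only that these letters are not in this window. The windows below show the PU.1 letters in 3 genes that rose and in 2 well measured ones that did not pass; capitals mark GAGGAAG or its reverse complement CTTCCTC, and each is written 5′ to 3′ on the gene's strand. They lie at chr16:31259725-31259974 (plus strand), chr12:53207252-53207501 (minus), chr11:64206471-64206720 (plus), chr2:186589806-186590055 (plus) and chr17:3801189-3801438 (minus).
ITGAM: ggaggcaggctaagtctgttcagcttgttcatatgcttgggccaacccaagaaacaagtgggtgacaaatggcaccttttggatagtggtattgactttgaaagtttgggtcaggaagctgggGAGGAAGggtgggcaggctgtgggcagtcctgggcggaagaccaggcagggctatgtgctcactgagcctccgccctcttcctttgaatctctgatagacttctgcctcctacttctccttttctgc
ITGB7: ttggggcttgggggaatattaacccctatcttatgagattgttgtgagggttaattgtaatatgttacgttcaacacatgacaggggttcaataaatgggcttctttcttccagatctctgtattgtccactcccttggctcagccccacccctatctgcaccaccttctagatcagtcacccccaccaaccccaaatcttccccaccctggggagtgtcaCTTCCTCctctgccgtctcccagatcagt
FERMT3: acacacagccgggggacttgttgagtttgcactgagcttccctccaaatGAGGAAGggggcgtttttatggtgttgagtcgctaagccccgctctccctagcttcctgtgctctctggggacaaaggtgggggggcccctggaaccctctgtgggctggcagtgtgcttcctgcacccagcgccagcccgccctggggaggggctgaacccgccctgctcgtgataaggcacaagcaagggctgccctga
ITGAV: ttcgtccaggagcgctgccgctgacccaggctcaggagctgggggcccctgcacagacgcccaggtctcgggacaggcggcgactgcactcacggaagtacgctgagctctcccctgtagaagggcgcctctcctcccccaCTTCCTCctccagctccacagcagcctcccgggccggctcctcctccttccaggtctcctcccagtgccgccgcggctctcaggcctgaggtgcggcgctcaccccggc
ITGAE: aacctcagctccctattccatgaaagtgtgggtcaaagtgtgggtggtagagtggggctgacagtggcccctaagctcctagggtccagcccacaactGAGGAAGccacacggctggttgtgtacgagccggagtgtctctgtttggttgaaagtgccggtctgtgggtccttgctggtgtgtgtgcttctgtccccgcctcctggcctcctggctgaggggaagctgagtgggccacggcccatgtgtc

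The α chains of leukocyte integrins split into 3 that rose and 2 that did not pass. ITGAL (CD11a), the α chain of LFA-1, which binds ICAMs, had log2 signals of 8.36, 8.38 and 8.28 in untreated and 10.16, 10.09 and 10.11 in Dll4-Fc arrays. The groups lay far apart, with a difference of 1.78 ± 0.06 (SE, n = 3 per group, adjusted p = 9.34e-07). ITGAM (CD11b), the α chain of complement receptor 3, had 7.97, 7.95 and 7.87 against 9.45, 9.76 and 9.71. Its 3 treated arrays were all higher, by 1.71 ± 0.09 (adjusted p = 1.19e-05), on a probe set with the suffix for several transcripts. Its other, dimmer probe set differed by -0.12 and did not pass (adjusted p = 0.553 with shared probe sets left out), and the mean of the 2 rose by 0.80. ITGAX (CD11c), the α chain of complement receptor 4 and a marker of dendritic cells and tissue macrophages, had 6.70, 6.77 and 6.96 against 8.19, 8.16 and 8.40. It rose 2.71-fold, by 1.44 ± 0.09 (adjusted p = 4.13e-05), again without overlap; the mean of its 2 probe sets rose by 0.67. ITGAD (CD11d), whose gene directly follows ITGAM and ITGAX on chromosome 16 with 0 coding genes between neighbours, had 5.69, 5.42 and 5.61 against 5.54, 5.67 and 5.58. The groups overlapped, and the difference was 0.03 ± 0.08 (adjusted p = 0.87) at a low signal. ITGAE (CD103), which pairs with β7 and binds E-cadherin, had 11.00, 10.95 and 10.88 against 10.83, 10.89 and 10.82, a difference of -0.10 ± 0.06 (adjusted p = 0.272) with overlapping groups.

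ITGB2 (CD18), the common β chain of these ICAM and complement receptors, had 11.63, 11.58 and 11.52 in untreated and 12.89, 12.91 and 12.95 in Dll4-Fc arrays. It rose 2.53-fold, by 1.34 ± 0.06 (adjusted p = 3.74e-06), and all 3 of its probe sets rose, by 1.51, 1.34 and 0.45. ITGB7, the β chain of the gut-homing α4β7, had 6.59, 6.92 and 6.93 against 9.30, 9.32 and 9.23. This was the steepest rise among the β chains, 2.47 ± 0.10 (adjusted p = 2.8e-06), from its only probe set. ITGB5, which pairs with αV and binds vitronectin, had 7.89, 7.81 and 7.77 against 9.34, 9.34 and 9.19. It rose by 1.47 ± 0.07 (2.76-fold, adjusted p = 5.84e-06) and its 4 probe sets all rose, by 0.66 to 1.47. ITGB1, the most widely shared β chain, had 12.43, 12.51 and 12.46 against 12.69, 12.68 and 12.78. The groups did not overlap, but the difference was small (0.25 ± 0.06, 1.19-fold, adjusted p = 0.0149), 2 of 7 probe sets rose, and the mean of the 7 differed by 0.08 (adjusted p = 0.304). Its probe sets at or above the median signal of all genes differed by 0.25, 0.22 and 0.15, the last without passing. The others lay below it and differed by -0.04 to 0.02. ITGB1 also missed the threshold without untreated replicate 1 (0.0516).

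The remaining β chains did not pass, and their groups overlapped. ITGB3, the platelet and osteoclast chain, differed by 0.00 ± 0.11, ITGB4, the hemidesmosome chain, by -0.04 ± 0.13 and ITGB8, which activates latent TGF-β, by 0.02 ± 0.12. None of their 17 probe sets passed in either direction, and all 17 lay below the median signal of all genes. No expression and a signal too weak to measure cannot be told apart for these genes.

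**Figure D2:**
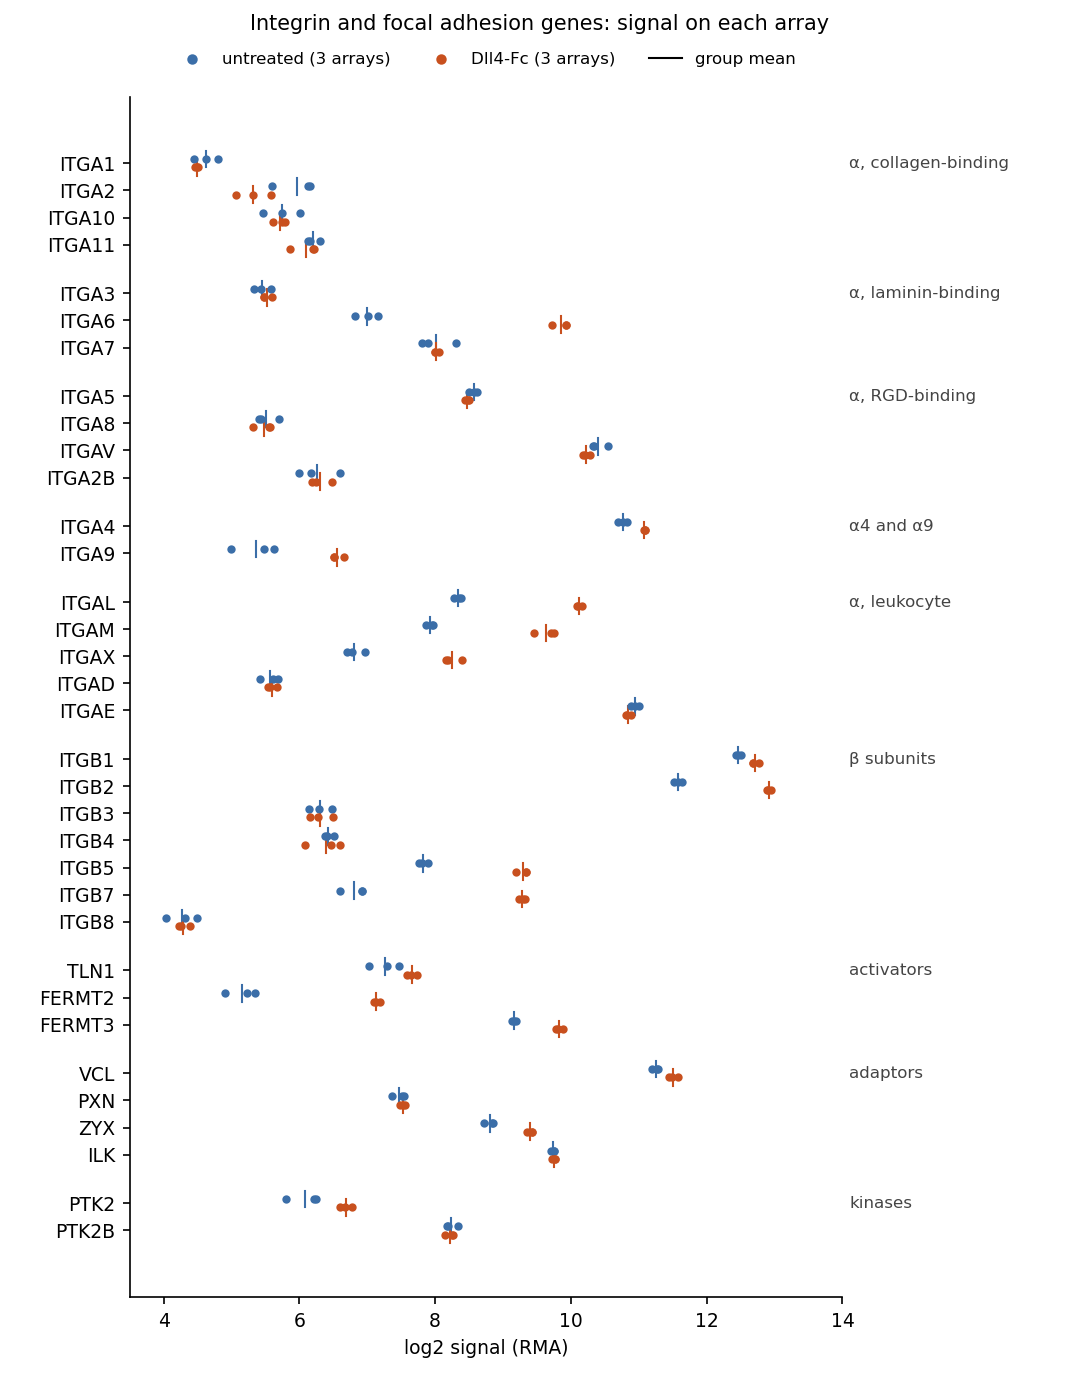
Log2 signal of each of the 34 genes on each array, untreated in blue and Dll4-Fc in orange, with ticks at the group means and genes grouped by role. Signals compare arrays within a gene and not genes with each other; the groups stand clear of each other for ITGA6, ITGAL, ITGAM, ITGAX, ITGB2, ITGB5, ITGB7 and FERMT2.

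Among laminin-binding chains ITGA6 alone of 3 passed. ITGA6 (CD49f), which is found on platelets, epithelia and stem cells, had 7.16, 7.02 and 6.82 in untreated and 9.93, 9.92 and 9.73 in Dll4-Fc arrays. Every treated array was higher, by 2.86 ± 0.10 (adjusted p = 1.63e-06), and its other probe set rose by 2.29. ITGA3 differed by 0.07 ± 0.08 (adjusted p = 0.599) and the muscle laminin receptor gene ITGA7 by 0.01 ± 0.13 (adjusted p = 0.972).

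The α4 and α9 chains, which bind VCAM-1 and osteopontin, rose. ITGA4 (CD49d), used by monocytes to stop on inflamed endothelium, had 10.77, 10.83 and 10.69 against 11.09, 11.09 and 11.07. The treated arrays were all higher, by 0.32 ± 0.06 (1.25-fold, adjusted p = 0.00557), and 3 of its 4 probe sets rose, by 0.32 to 0.58. ITGA9 had 5.62, 5.49 and 5.00 against 6.66, 6.52 and 6.50, a rise of 1.19 ± 0.15 (2.28-fold, adjusted p = 0.00114). Here the 3 other probe sets did not pass, with differences of 0.14, 0.01 and -0.08, and the mean of the 4 rose by 0.31. All 4, the one used among them, lay below the median signal of all genes. The one used had the highest mean over the 6 arrays only through its Dll4-Fc values. In untreated arrays it lay at 5.37, and the probe set that differed by 0.14 lay at 5.55.

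The 4 α chains that bind the RGD sequence did not pass. The vitronectin receptor gene ITGAV had 10.34, 10.55 and 10.32 in untreated and 10.19, 10.21 and 10.29 in Dll4-Fc arrays. The groups did not overlap, and the difference of -0.18 ± 0.08 missed the threshold (adjusted p = 0.135), which it passed with array weights (-0.27, adjusted p = 0.0216) and with a trended robust prior (adjusted p = 0.0388). The fibronectin receptor gene ITGA5 had 8.58, 8.62 and 8.50 against 8.43, 8.50 and 8.48, a difference of -0.10 ± 0.06 (adjusted p = 0.266) with the groups barely apart. ITGA8 and the platelet chain gene ITGA2B differed by -0.04 ± 0.10 and 0.05 ± 0.16, at low signals and with overlap; 1 dimmer ITGA2B probe set was lower (-0.30, adjusted p = 0.011).

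The 4 collagen-binding chains were all dim. ITGA2 (CD49b), the collagen receptor chain of platelets, was the only one of the 34 genes that fell, with 6.13, 6.16 and 5.60 in untreated and 5.07, 5.31 and 5.58 in Dll4-Fc arrays. Untreated replicate 3 and Dll4-Fc replicate 3 were nearly equal, and the difference was -0.64 ± 0.18 (1.56-fold lower, adjusted p = 0.034). Its other probe set differed by -0.03, and the call was lost with cyclic loess (adjusted p = 0.0558) and with the arrays of untreated replicate 1 (0.106) or 2 (0.105) or of Dll4-Fc replicate 1 (0.113) or 2 (0.0883) left out. ITGA1 differed by -0.13 ± 0.09, ITGA10 by -0.03 ± 0.13 and ITGA11 by -0.10 ± 0.11, none past the threshold.

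Taken as pairs, 24 α and β combinations are known in textbooks and 23 had values for either chain. The genes of both chains rose for 7 pairs: αLβ2, αMβ2, αXβ2, α4β1, α4β7, α6β1 and α9β1. The β chain alone rose for 12, among them αVβ5, αEβ7, αDβ2 and 9 of the β1 pairs, and α6 alone rose in α6β4. Those 9 β1 pairs all rest on the same small rise of ITGB1, and in α2β1 the α chain gene ITGA2 fell. Neither rose for αIIbβ3, αVβ3 and αVβ8. Of the chain genes that did not rise, ITGA1, ITGA2, ITGA3, ITGA8, ITGA10, ITGA11, ITGAD, ITGA2B, ITGB3, ITGB4 and ITGB8 lay below the median signal of all genes. For those of them that did not pass, no expression and a signal too weak to measure cannot be told apart. Of the 7 pairs, 3 rest on ITGB1, whose rise was small, αMβ2 rests on 1 of 2 ITGAM probe sets and α9β1 on 1 of 4 of ITGA9. These are transcript signals of single chains, and no pair was measured on the cell surface.

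The genes of all 3 integrin activators rose. FERMT2 (kindlin-2), best known from adherent non-blood cells, had 5.34, 5.23 and 4.90 in untreated and 7.12, 7.10 and 7.18 in Dll4-Fc arrays. It rose by 1.98 ± 0.11 (adjusted p = 1.92e-05), and its 3 probe sets rose by 1.98, 0.82 and 0.32, their mean by 1.04. FERMT3 (kindlin-3), the kindlin of blood cells, had 9.16, 9.19 and 9.14 against 9.78, 9.81 and 9.89, a rise of 0.67 ± 0.05 (1.59-fold, adjusted p = 0.00013) without overlap. TLN1 (talin 1) had 7.47, 7.29 and 7.03 against 7.64, 7.58 and 7.74. The groups did not overlap and the difference was 0.39 ± 0.11 (1.31-fold, adjusted p = 0.039). The call held without untreated replicate 1 and was lost without each of the other arrays: the adjusted p was 0.0881 and 0.0522 without untreated replicates 2 and 3, and 0.103, 0.0694 and 0.114 without Dll4-Fc replicates 1, 2 and 3.

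Of 4 adaptors and 2 kinases of focal adhesions, ZYX, VCL and PTK2 rose and the other 3 did not pass. ZYX (zyxin), which marks adhesions under tension, had 8.84, 8.85 and 8.72 against 9.42, 9.42 and 9.35. It rose by 0.59 ± 0.06 (1.51-fold, adjusted p = 0.000332), and its other probe set rose by 0.62 ± 0.08. VCL (vinculin), which ties talin to actin, had 11.20, 11.28 and 11.27 against 11.45, 11.49 and 11.59. The rise of 0.26 ± 0.06 (1.20-fold, adjusted p = 0.0165) was lost without untreated replicate 1 (0.0569) and without Dll4-Fc replicate 2 (0.0502), and the mean of its probe sets differed by 0.06 (0.519). PTK2, the focal adhesion kinase FAK, had 6.24, 6.21 and 5.80 against 6.77, 6.60 and 6.67, a rise of 0.60 ± 0.12 (1.51-fold, adjusted p = 0.00985) seen on 2 of 4 probe sets. Its relative PTK2B (PYK2), the form typical of macrophages, had 8.18, 8.19 and 8.34 against 8.25, 8.15 and 8.26. The groups overlapped, with a difference of -0.02 ± 0.07 (adjusted p = 0.889). The scaffold genes PXN (paxillin) and ILK (integrin-linked kinase) differed by 0.05 ± 0.06 and 0.01 ± 0.05 and did not pass (adjusted p = 0.654 and 0.949).

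**Figure D3:**
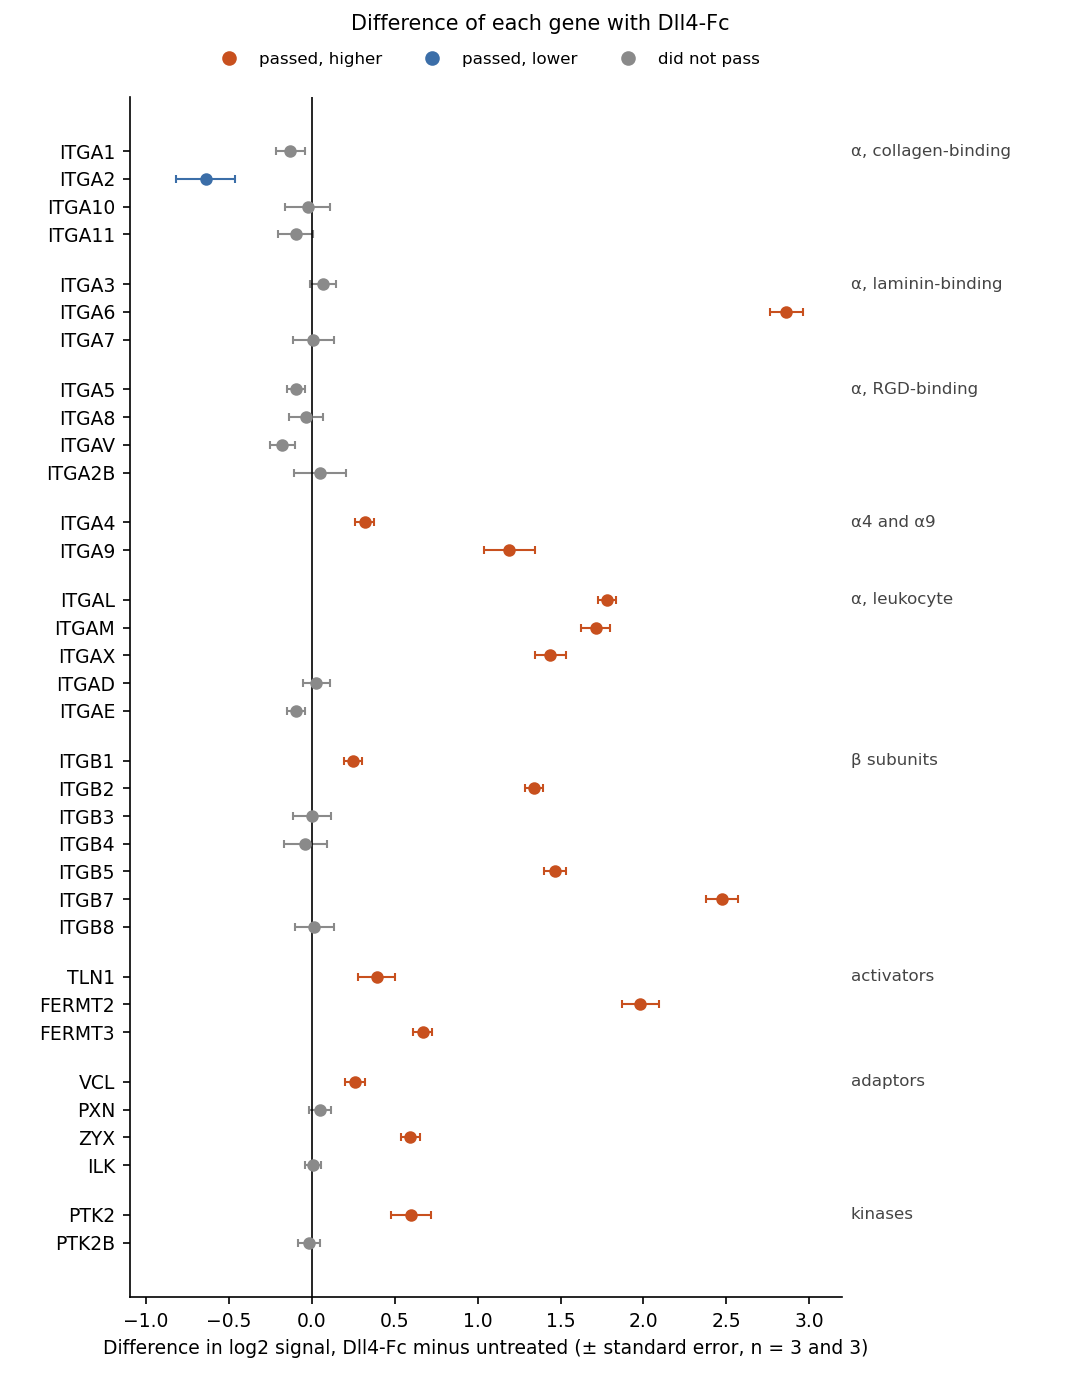
Difference in log2 signal, Dll4-Fc minus untreated, with its standard error (n = 3 arrays per group), for the 34 genes by role; orange and blue points passed as higher and lower and grey points did not pass. The largest are ITGA6 at 2.86 and ITGB7 at 2.47, and ITGA2 stands below zero at -0.64.

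The 34 genes have 92 probe sets between them, of which 31 were higher and 2 lower, where 9.01% and 11.5% of 41097 probe sets with 1 symbol passed in each direction. For 0 of the genes did probe sets pass in opposite directions. The clearest disagreement was in ITGAM, whose other probe set lay at 5.61 in untreated and 5.49 in Dll4-Fc arrays. That of ITGAX lay at 5.23 and 5.12 and differed by -0.11. These other probe sets lie below the median signal of all genes, and ITGAM's rise rests on a probe set with the suffix for several transcripts. For 14 of the 34 genes the probe set used has such a suffix. Every probe set of ITGAL, ITGB2, FERMT2, ZYX and VCL has it, so the rises of these genes could not be checked on a probe set without it.

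**Figure D4:**
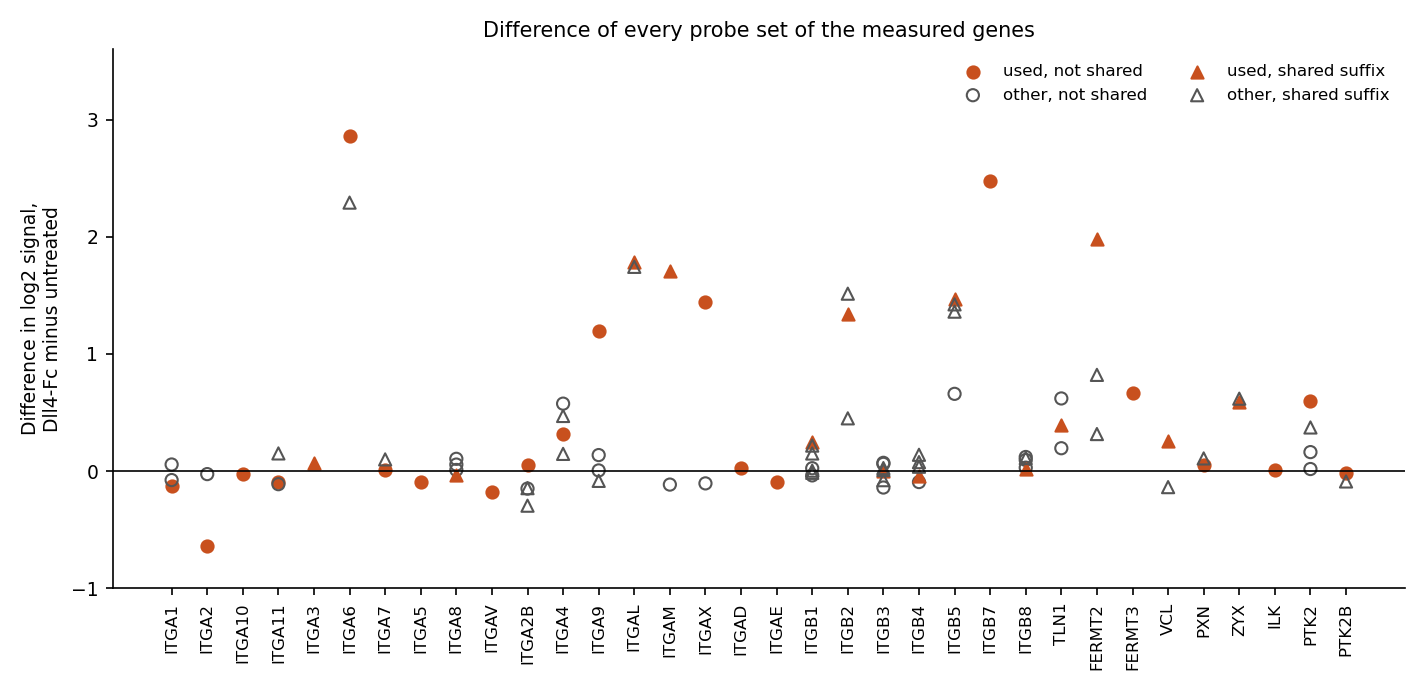
Difference in log2 signal for all 92 probe sets of the 34 genes; filled symbols are the probe sets used, open symbols the others, and triangles those with a suffix for several transcripts. Probe sets of ITGA6, ITGAL, ITGB2, ITGB5, FERMT2 and ZYX all lie above zero, while ITGAM, ITGAX and ITGA9 each have 1 high probe set and others near zero.

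Around these receptors, 5 further lists were described: ligands, activation, other adaptors, downstream kinases and podosome proteins. Of 110 genes measured in them 29 rose (26.4%) and 23 fell (20.9%), with a median of 0.05, and 33 of the 110 lay below the median signal. The shares over all genes were 11.6% and 15%, and 18% and 24.5% over those at or above the median signal. Among 27 integrin ligands 4 rose and 6 fell (median 0.02): SPP1, the secreted osteopontin bound by αV and α9 integrins (7.24), ICAM2, a ligand of LFA-1 (1.26 ± 0.06, adjusted p = 6.17e-06), CD47, which associates with integrins (0.42), and the matrix protein gene TNC (0.42) rose. The largest falls were those of the matrix-associated CCN2 (-0.62) and CCN1 (-0.45) and of the fibrillin gene FBN1 (-0.37). TNC, CCN2, CCN1 and FBN1 lay below the median signal of all genes, as did 17 of the 27 ligands in all. ICAM1 differed by 0.10 and did not pass (adjusted p = 0.167), nor did VCAM1 (0.997). ICAM3 was among the genes that fell (-0.29, adjusted p = 0.0246).

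Of 19 genes of inside-out activation 6 rose and 3 fell (median 0.05). The adaptor gene DAB2 (1.23 ± 0.13), RAP1A, the GTPase that recruits talin (0.56 ± 0.05), its exchange factor RAPGEF1 (0.55) and APBB1IP, which links RAP1 to talin (0.42), rose, and RASGRP2, another exchange factor for RAP1 (-0.64 ± 0.09, adjusted p = 0.00147), fell, with ITGB3BP (-0.36) and the integrin inhibitor SHARPIN (-0.18). Among 32 other adaptors 8 rose and 8 fell (median 0.01). LPXN (leupaxin), the paxillin relative of blood cells and osteoclasts, rose 4.16-fold, from 7.39, 7.17 and 7.02 to 9.23, 9.33 and 9.19 (2.06 ± 0.10, adjusted p = 8.26e-06). LIMS1 (0.94) and RSU1 (0.56), which bind each other beside ILK, and ENAH (0.46) also rose, while KANK2, which binds talin (-0.77 ± 0.08), TNS2 (-0.32) and PARVA (-0.26) fell. Of these, LIMS1, ENAH and TNS2 lay below the median signal of all genes.

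Of 20 kinases and GTPases 5 rose and 5 fell (median -0.04). The Src family genes FYN (1.21 ± 0.13, adjusted p = 0.000562), FGR (0.83 ± 0.07) and LYN (0.77 ± 0.06), which relay β2 integrin signals in phagocytes, rose with ASAP1 (0.30), and PIK3CB (-0.44), ROCK2 (-0.36) and ARHGAP35 (-0.35) fell. SRC itself differed by 0.21 ± 0.08 (adjusted p = 0.098). Among 12 podosome genes, which build the actin-rich feet of macrophages, 6 rose and 1 fell (median 0.24). The rises were led by LSP1 (1.14 ± 0.14), the scaffold genes SH3PXD2B (1.01 ± 0.16) and SH3PXD2A (0.56) and cortactin, CTTN (0.71), and SVIL (supervillin) fell by 0.69. Of these, LSP1 and CTTN lay below the median signal of all genes.

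**Figure D5:**
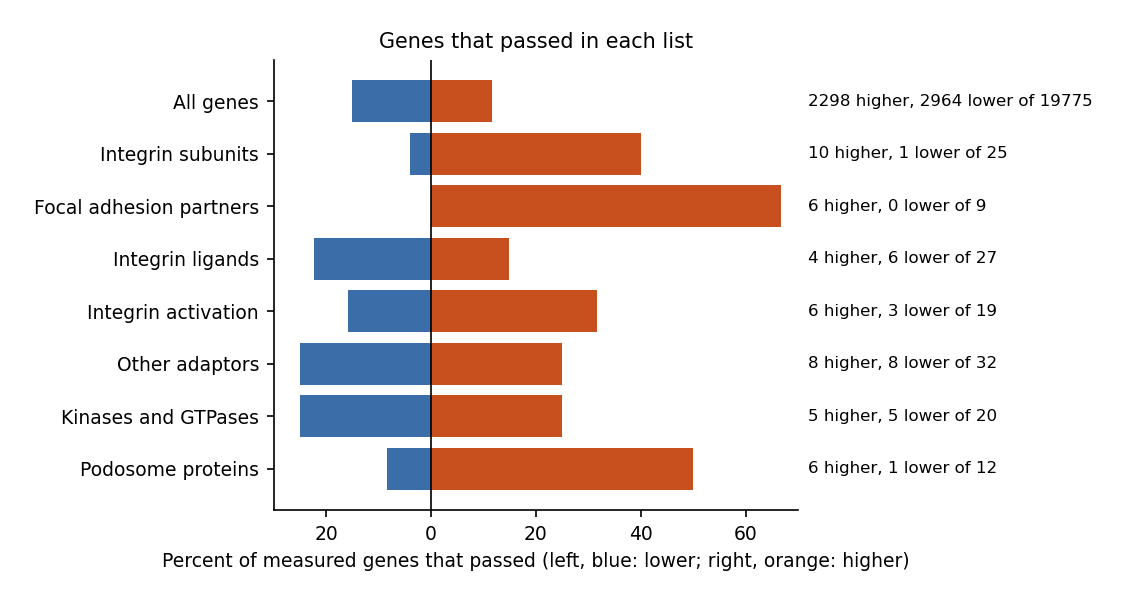
Percent of measured genes that passed as higher (right) or lower (left) in each list and over all 19775 genes. Integrin subunits (10 higher and 1 lower of 25) and focal adhesion partners (6 and 0 of 9) extend to the right, while ligands (4 and 6 of 27), other adaptors (8 and 8 of 32) and kinases (5 and 5 of 20) extend to either side.

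Monocytic marker genes moved with these results. Of 8 measured 6 rose and 2 fell, CEBPA (-0.21) and MPO (-0.79), and the summed signal of the 8 was 19765 to 20291 in untreated and 41123 to 43034 in Dll4-Fc arrays. This sum is of linear signals, so bright genes weigh most in it and it is not a change common to the list. The bright genes LYZ and FCER1G rose by 2.00 and 1.63, while SPI1 rose by 0.31. The part of these markers in the integrin results was not tested, and in bulk RNA a change in the share of cells and a change in RNA per cell cannot be told apart. The defining markers of T cells (4 of 4), endothelium (5 of 5) and epithelium (5 of 5) lay below the median signal, as did 5 of 6 of platelets, 5 of 6 of stroma and 3 of 4 of B cells. Of these lists' genes PAX5 rose (0.60) and GP9, a platelet glycoprotein gene, fell (-0.25); the summed platelet signal was 295 to 325 in untreated and 280 to 289 in Dll4-Fc arrays. Over the 34 genes the correlation of arrays of 1 group was 0.991 to 0.999 and that of arrays of different groups 0.917 to 0.934, a description of genes that are not independent. Untreated replicate 3 was the lowest untreated array for 18 of the 34 genes, and for 44.3% of all genes.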

How the data were processed

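Total RNA (5 ng per sample, per the labels' protocols) from 6 THP1 samples was amplified, biotin-labelled and hybridized to 1 array each. The authors deposited 1 linear intensity per probe set (54675) and array, made with RMA, per the submitters' processing notes, no release being given in the sources used here. Median intensity per array was 50.6 to 52.7. RMA shrinks differences of dim probe sets, and its quantile step hides changes in total RNA.

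Intensities were log2 transformed here, with no filter. Of the probe sets 41097 had 1 gene symbol, 1801 several and 11777 were not listed. Groups were compared over 19775 genes with limma 3.58.1 in R 4.3.3 (lmFit, eBayes, 2-sided, 4 residual degrees of freedom), with Benjamini-Hochberg adjustment over all genes and a threshold of 0.05; probe sets were adjusted over all 41097. The procedure was tested on simulated data. The number of arrays limits precision: differences had a median standard error of 0.075. The members, lists and tests were chosen with earlier results of these data known. All members are named. In each further list at most 4 rises and 3 falls are named, by size, plus ICAM1, ICAM3, VCAM1 and SRC, chosen after their values were seen.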

Additional observations from a re-analysis of the deposited data

How the results depend on the processing

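Of the 17 genes that passed, 12 kept their direction and call under each of the 15 alternatives that measured them; ITGAM, ITGB1, TLN1, VCL and ITGA2 did not. ITGAM gave -0.12 without shared probe sets, where only its dim probe set is left. The number of the 34 genes that rose was 14 to 16 under every alternative other than leaving out shared probe sets (9 of 28) and dim genes (13 of 20), which test fewer genes. The number that fell was 0 with the replicate block, with cyclic loess and with dim genes left out, 2 with array weights and 2 with the trended robust prior, where ITGAV is added, and 0 to 1 when 1 array was left out. The median difference (0.06) was 0.35 without dim genes, 0.017 without shared probe sets, 0.13 with array weights, and 0.064 to 0.19 when 1 array was left out. Over all genes the number lower was 1850 to 3189 with 1 array left out (1850 if that is Dll4-Fc replicate 1, 1967 if untreated replicate 2), and the share of calls that were higher went from 43.7% to 53.7% with cyclic loess. Whether same-numbered arrays are paired is not known here. Their deviations from the group means correlated at 0.01, -0.21 and -0.15, which with 3 arrays per group cannot settle it. With the replicate block 14 genes rose, 1829 genes were higher and 2061 lower, and ITGA2, ITGB1 and TLN1 were lost. With all arrays 0.16 was the smallest difference to pass among all genes, and it is not a limit for each gene. ITGAV at -0.18 did not pass, and the standard errors of the members that did not pass were 0.05 to 0.16. Smaller changes, and larger ones in genes with more spread, can therefore be missed.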
